A study of Apis mellifera with 6 samples.

Results

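The honey bee genes LOC412197, LOC410857 and LOC408875, which encode small heat shock proteins (sHSP) and lie outside the l(2)efl cluster, were followed together with LOC102653599, a long non-coding RNA gene that overlaps LOC410857. They were picked by gene identifier, with earlier results of these data known, and make up 4 of the 10151 gene IDs listed. The study names LOC412197 and LOC410857 as homologs of lethal (2) essential for life, or l(2)efl, a Drosophila melanogaster sHSP gene, and LOC408875 as Heat shock protein beta-1. Expression was measured by RNA-seq after poly(A) selection in 6 single midguts of adult bees, 3 kept at 35 °C and 3 at 45 °C. The bees were a mix of Apis mellifera subspecies collected at the landing boards of outbred colonies, and their age was not given. Per the labels, both groups received sucrose with 0.5% DMSO, the solvent, for 4 h, but the methods describe DMSO controls of the companion datasets as fed for longer, so the feeding time of the 35 °C group is uncertain. All 3 of the 35 °C libraries, and 0 of the 45 °C libraries, are marked as taken over from another series, so an effect of temperature and one of the source series cannot be told apart. The values are normalized counts, which are the reads on a gene divided by a size factor for each library. No transcript lengths were used, so a ratio of normalized counts between genes below describes how reads were divided and not which transcript was more abundant.

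Small heat shock proteins are chaperones built around a shared alpha-crystallin domain. They hold unfolding proteins in a soluble state without using ATP, and hand them to ATP-driven chaperones such as Hsp70 for refolding. In many animals some sHSP genes are nearly quiet until heat activates them through heat shock factor, while others are made at a steady level in particular tissues. The midgut is the digestive epithelium of the bee. No function of LOC102653599 was given in the sources used here.

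The only sequences at hand that belong to these genes were the study's quantitative PCR primers. They are shown because they mark the place at which the study targeted each coding gene. Each is written 5′ to 3′ in lower case throughout.
LOC412197 forward primer: cgaaaagcgcgccatatcaa
LOC412197 reverse primer: tgaaggatggcattggtggt
LOC410857 forward primer: gaacgtccagtgtcccgatt
LOC410857 reverse primer: atccgtgctcgtcttgtctc
LOC408875 forward primer: ttcgcgatagcagtgcttctt
LOC408875 reverse primer: gggggctgagagaactgttt
These 6 primers were 20 or 21 bases long and held 10 or 11 G or C bases. Against the 18 primers of other genes in the same list, on either strand, the longest run of identical bases was between 5 and 9, and the 9-base run belonged to the LOC412197 reverse primer.

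The libraries held 23305758 to 26279130 reads on listed genes at 35 °C and 24690115 to 26921417 at 45 °C. Over genes, Spearman correlations between libraries of the same temperature were 0.973 or more, and those across temperatures 0.927 or less. Of 20 marker genes for other tissues, 14 were listed. The royal jelly genes Mrjp1, Mrjp2 and Mrjp3, the opsins Lop1 and Blop, and Apamin were not among them. The 5 fat body genes (vitellogenin and hexamerins) summed to 643 to 834 normalized counts at 35 °C and 923 to 1405 at 45 °C, the 7 troponin genes to 4676 to 7647 and 5869 to 7069, and the opsin Uvop to 471 to 802 and 186 to 258. The venom peptide gene Melt had 1.69 to 4.66 at 35 °C and 7.95 to 430 at 45 °C, where replicate 3 was the highest. The part of other tissues in the results was not tested, and the midgut label could not be checked because the gene table used here held no descriptions for the digestive enzyme markers. In bulk RNA of this kind, more RNA of a gene per cell and more cells that make it cannot be told apart.

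LOC412197, LOC410857 and LOC102653599 were higher at 45 °C, and LOC408875 did not pass the test. Called genes had a log2 fold change beyond 1 in either direction and a limma p, adjusted over all genes, below 0.05. Of the 4 genes, 3 were called higher at 45 °C and 0 lower, where 13.1% of all listed genes were called higher, 4.94% lower and 18.0% in either direction. The 3 libraries at 45 °C lay above the 3 at 35 °C for 4 of 4 genes, against 26.8% of all genes, and 53.2% of all genes were apart in either direction. For LOC408875 this separation depended on the scaling, since as a share of the reads on listed genes it ran from 0.00771% to 0.00901% at 35 °C and from 0.00766% to 0.00792% at 45 °C, which overlap. The median log2 fold change was 3.46 over the 4 genes and -0.01 over all genes. The rises in the called genes ranged from 9.06-fold to 256-fold as ratios of the group means.

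**Figure D1:**
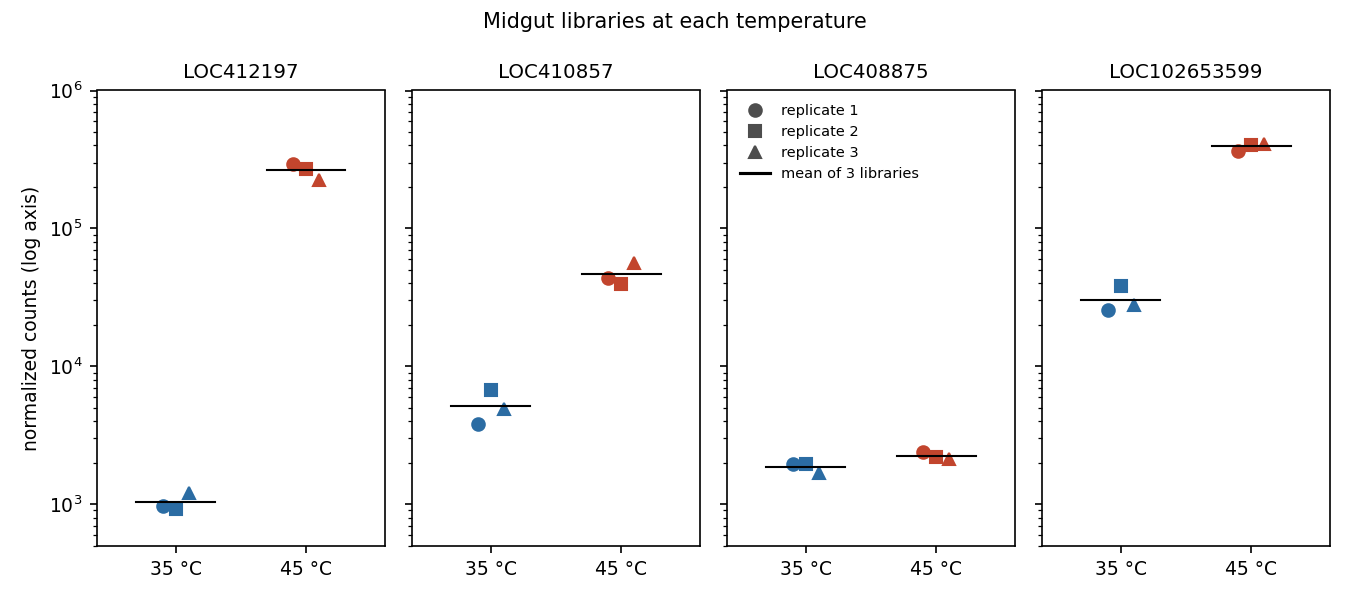
Normalized counts of LOC412197, LOC410857, LOC408875 and LOC102653599 in each of the 6 libraries at 35 °C and 45 °C (log axis). Each point is 1 midgut, its shape gives the replicate number and the line is the mean of 3, and the groups of LOC408875 are the closest together, with the lowest 45 °C library 1.08 times the highest 35 °C library.

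LOC412197, a homolog of l(2)efl, had the largest response of the 4. At 35 °C the 3 libraries held 968, 926 and 1197 normalized counts. At 45 °C they held 294262, 270956 and 225595 normalized counts. All 3 heated midguts were thus far above all 3 controls, and the lowest heated library was 188 times the highest control. The means were 1030.3 ± 146 and 263604 ± 34919 (SD, n = 3 each), a ratio of 256. The log2 fold change was 8.00 (SE 0.167, 95% interval 7.61 to 8.39, limma adjusted p = 4.85e-07). Only 3 of the 10151 genes had a larger log2 fold change. The counts behind these values were 1038 to 1356 reads at 35 °C and 225519 to 239026 reads at 45 °C.

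LOC410857, the other l(2)efl homolog outside the cluster, was present at 35 °C and rose less, though its reads cannot be told from those of LOC102653599 where the genes overlap. The controls held 3795, 6708 and 4913 normalized counts. The heated midguts held 43738, 39560.5 and 56302 normalized counts. Groups did not overlap, and the lowest heated library was 5.90 times the highest control. The means were 5139 ± 1469 and 46534 ± 8714 (SD, n = 3 each), a ratio of 9.06. The log2 fold change was 3.20 (SE 0.236, 95% interval 2.65 to 3.75, limma adjusted p = 0.000114), at rank 177 of 10151. Among the controls the highest midgut, replicate 2, had 1.77 times the lowest, replicate 1.

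LOC102653599, the long non-coding gene, had 25573, 37896 and 27911 normalized counts at 35 °C. It had 365681, 405443 and 411370 normalized counts at 45 °C. All heated libraries were well above all controls, the lowest being 9.65 times the highest control, and the heated values lay close to one another. The means were 30460 ± 6545 and 394165 ± 24845 (SD, n = 3 each), a ratio of 12.9. The log2 fold change was 3.71 (SE 0.228, 95% interval 3.18 to 4.24, limma adjusted p = 5.26e-05), at rank 104 of 10151. Among the 771 listed genes that the RefSeq gene table classes as lncRNA, 138 (17.9%) were called higher and 48 lower, and LOC102653599 had rank 18 by log2 fold change.

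LOC410857 and LOC102653599 overlap in the RefSeq gene table, and the sources used here do not say how reads in the shared stretch were assigned. Whole gene spans were compared, in an assembly other than the counted build, so the overlap of exons is not known. The library kit named in the labels does not mark strand, so reads from the 2 genes cannot be told apart where they overlap, and both values are uncertain for that reason. Their ratio was therefore described in each library. LOC102653599 had 6.74, 5.65 and 5.68 times the normalized count of LOC410857 in the controls, and 8.36, 10.2 and 7.31 times in the heated midguts. The ratio was higher in every heated library than in every control. The mean ratios were 6.02 ± 0.620 and 8.64 ± 1.49 (SD, n = 3 each), a difference of 0.51 on the log2 scale (two-sided exact permutation p = 0.1, the smallest that 3 against 3 allows).

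The sum of both genes does not depend on how shared reads were divided between them, provided that each was counted once. It was 29368, 44604 and 32823 normalized counts at 35 °C and 409419, 445003 and 467672 at 45 °C. The summed values were higher in all heated libraries, by 3.65 on the log2 scale (exact permutation p = 0.1, the smallest possible). LOC410857 made up 12.9%, 15.0% and 15.0% of the sum in the controls and 10.7%, 8.89% and 12.0% in the heated midguts. The rise of LOC410857 amounted to 11.4% of the rise of LOC102653599. The extent to which the rise in either gene came from reads of the other was not tested.

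**Figure D2:**
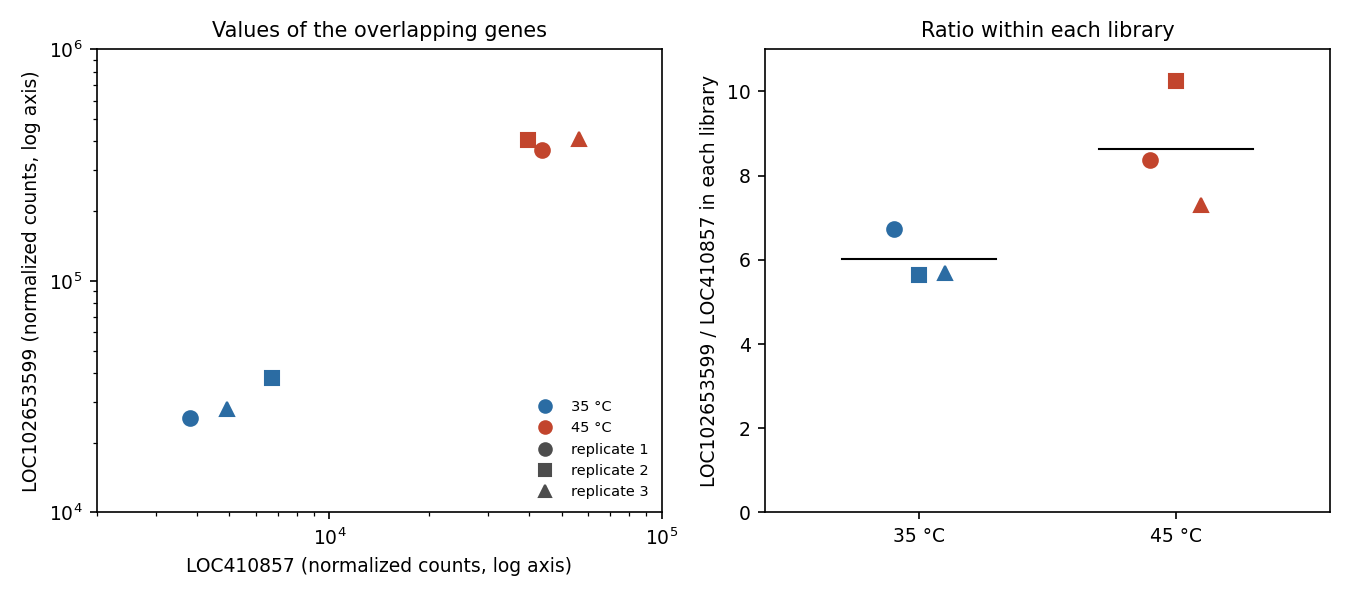
The overlapping genes LOC410857 and LOC102653599 in the 6 libraries, with their normalized counts plotted against each other on log axes (left) and the ratio of LOC102653599 to LOC410857 by temperature (right). Each point is 1 midgut, the lines are means of 3, and the ratio runs from 5.65 to 6.74 at 35 °C and from 7.31 to 10.2 at 45 °C.

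LOC408875, named Heat shock protein beta-1, was expressed at both temperatures and did not pass the test. An lncRNA gene that is not listed overlaps it in the RefSeq gene table. Whether reads of that gene were counted on LOC408875 was not tested. The controls held 1957, 1967 and 1688 normalized counts. The heated midguts held 2394, 2201 and 2132 normalized counts. On this scale the groups did not overlap, but the gap between them was small, and the lowest heated library was 1.08 times the highest control. The means were 1870.7 ± 158 and 2243 ± 136 (SD, n = 3 each), a ratio of 1.20. The log2 fold change was 0.26 (SE 0.118, 95% interval -0.01 to 0.54, limma adjusted p = 0.115), short of both thresholds. The interval lies within -1 and 1, as it did for 44.7% of all genes. The direction of this small difference depended on scaling, since with library size alone the log2 fold change was -0.12 while the median of all genes was -0.39. As a share of all reads on listed genes LOC408875 took 0.00852% ± 0.000708 at 35 °C and 0.00781% ± 0.000134 at 45 °C (exact permutation p = 0.3).

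The responses were also set against each other within each library. In all 6 pairs of genes, the within-library log2 ratio did not overlap between temperatures (two-sided exact permutation p = 0.1 in each, the smallest possible, and 0.1 adjusted over the 6 pairs, so that p below 0.05 could not be reached). The 6 pairs were made from the same 4 genes and are not independent. The share over other pairs of genes was not computed, and 53.2% of single genes were apart in either direction. On the log2 scale, the response of LOC412197 exceeded that of LOC410857 by 4.80 (SE 0.381), that of LOC408875 by 7.74 (SE 0.200) and that of LOC102653599 by 4.29 (SE 0.293). LOC410857 exceeded LOC408875 by 2.94 (SE 0.303). The difference of LOC408875 minus LOC102653599 was -3.45 (SE 0.193). The overlapping pair was the closest, with a difference of LOC410857 minus LOC102653599 of -0.51 (SE 0.165).

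**Figure D3:**
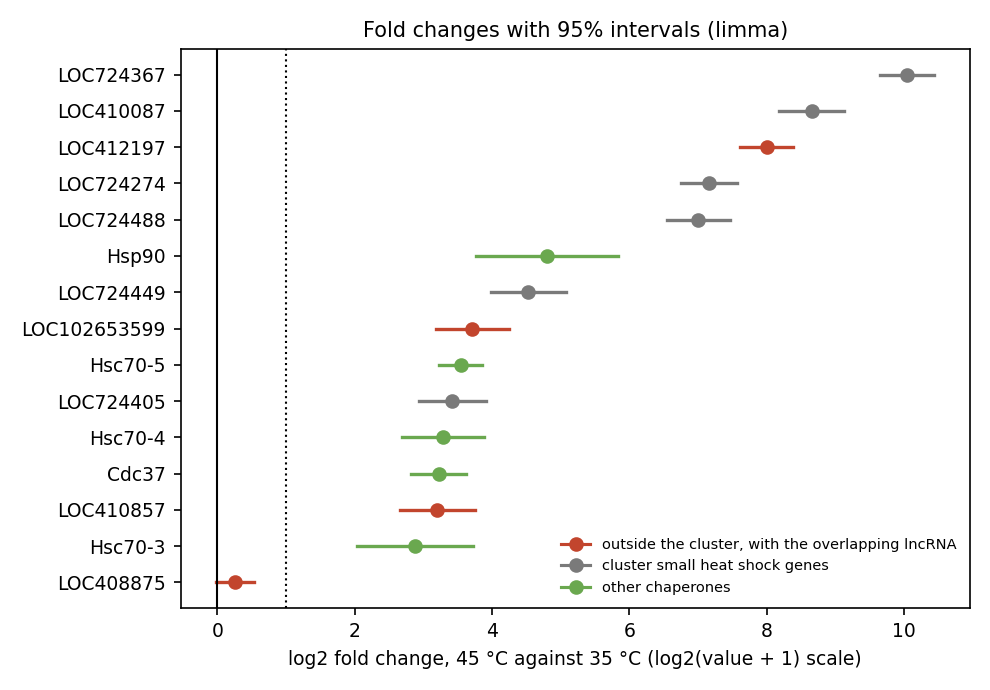
Log2 fold changes at 45 °C against 35 °C (points, with 95% intervals from limma) of the 4 genes, the 6 cluster small heat shock IDs and 5 other chaperone genes, with a dotted line at 1. LOC412197, at 8.00, lies among the cluster genes, which run from 3.42 to 10.04, and LOC408875, at 0.26, lies below all others.

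The 6 listed gene IDs of the l(2)efl cluster, which the study describes as colocalised in the genome, were the nearest comparison. The study proposes that LOC410087 is in fact 2 genes, so the value of this ID may pool both. All 6 IDs were called higher, with a median log2 fold change of 7.08. LOC412197 ranked between 2 of them, with LOC410087 at 8.66 above it and LOC724274 at 7.16 below it. Both differences kept the groups apart, at 0.66 (SE 0.267) and 0.84 (SE 0.0877), with exact permutation p = 0.1 each and 0.15 adjusted over 9 neighbouring pairs. LOC102653599 came after LOC724449, at 4.53, and was followed by LOC724405, at 3.42, and then LOC410857. Both neighbouring pairs among these last 3 had overlapping libraries, with differences of 0.29 (SE 0.274, exact permutation p = 0.5) and 0.22 (SE 0.322, exact permutation p = 0.6), whereas LOC102653599 and LOC410857 themselves were apart. LOC408875 came last, 2.94 (SE 0.303) below LOC410857. Of the 9 neighbouring pairs in this order, 6 kept their libraries apart and 3 did not. The order was taken from these same libraries, which fixed the sign of each difference beforehand. The p-values and the tally are therefore descriptions and cannot test the order. The share of pairs kept apart was not computed over other pairs of genes.

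The chaperone genes of other families that were looked up by symbol were also higher, and their changes are given on the log2 scale. Of 11 symbols in the fixed list, 5 had no match in the table, and Hsp83 and Hsp90 name the same gene, which leaves 5 genes, all called higher with a median log2 fold change of 3.28. Hsp90, a chaperone of signalling proteins, rose by 4.80 (limma adjusted p = 0.000309), and Cdc37, which brings kinases to Hsp90, by 3.22 (limma adjusted p = 3.15e-05). Hsc70-4, a cytosolic Hsp70, rose by 3.28 (limma adjusted p = 0.000141). Hsc70-5, the Hsp70 of mitochondria, rose by 3.54 (limma adjusted p = 6.77e-06), and Hsc70-3, the Hsp70 of the endoplasmic reticulum, by 2.88 (limma adjusted p = 0.00111). LOC410857 and LOC102653599 lay within the range of these 5 genes, 2.88 to 4.80, and LOC412197 above it. In the controls each of the 5 was highest in replicate 1 and lowest in replicate 3. Hsp90 had 43592, 19949 and 11776 normalized counts there. LOC412197, LOC410857 and LOC102653599 did not follow this order. LOC408875 missed it in normalized counts, at 1957, 1967 and 1688, but followed it as shares of reads (0.00901%, 0.00884% and 0.00771%). Of the cluster IDs, only LOC724488 followed it in normalized counts, at 7975, 6093 and 6064. It missed the order as shares of reads (0.0367%, 0.0274% and 0.0277%). With the cluster, 11 of 11 of these chaperone genes were called higher and 0 lower, against 13.1% and 4.94% of all listed genes. Chaperone genes outside this list were not examined.

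**Figure D4:**
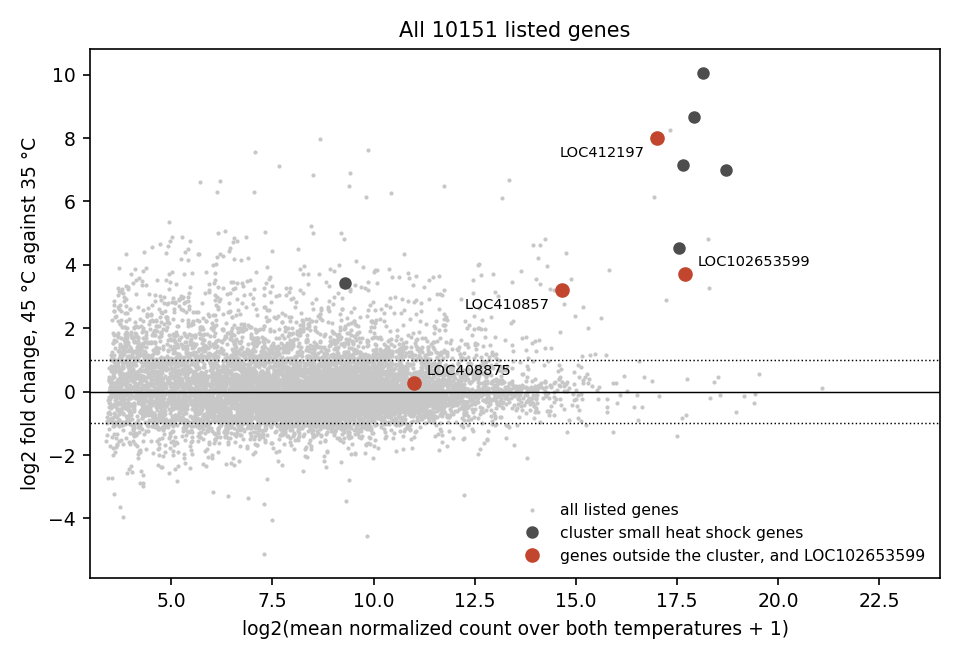
Log2 fold change (45 °C against 35 °C) against log2 of the mean normalized count plus 1 over both temperatures, for all 10151 genes in grey, with the 4 genes in red, the cluster IDs in dark grey and dotted lines at a log2 fold change of 1 and -1. LOC412197 is in the upper right and LOC408875 is near 0, within the grey cloud.

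How much each gene varied among midguts of 1 temperature was set beside the 200 genes nearest to it in mean level. At 35 °C the SD of log2 values of LOC410857 was 0.411, against a median of 0.173 for its 200 genes, and 173 of them were less variable. Its SD at 45 °C was 0.262, with 135 of 200 less variable. LOC412197 had 0.198 at 35 °C and 0.196 at 45 °C, with 130 and 107 of 200 less variable. LOC408875 was among the steadier genes at 45 °C, with an SD of 0.0865 and 29 of 200 genes less variable. LOC102653599 had 0.298 at 35 °C and 0.0926 at 45 °C, with 142 and 36 of 200 less variable. The control midgut with the most LOC410857 was replicate 2, which also had the most LOC102653599, whereas LOC412197 was highest in replicate 3.

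In reads, the 4 genes took 0.175% ± 0.0341 of all reads on listed genes at 35 °C and 2.47% ± 0.181 at 45 °C, as mean and SD. LOC102653599 had 1.38% ± 0.188 at 45 °C and LOC412197 had 0.915% ± 0.0681. The 3 sHSP genes without LOC102653599 went from 0.0366% to 1.09%, and the 6 cluster IDs from 0.125% to 9.46%. These shares all rose in every heated library, with exact permutation p = 0.1, the smallest possible.

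Of the 6 listed genes that flank these 4 in the RefSeq gene table, 1 was called. Over all listed genes, 18.0% were called in either direction, so this count is near that share. LOC412196, the coding gene beside LOC412197, had 31.7, 52.5 and 47.7 normalized counts at 35 °C and 356, 345 and 385 at 45 °C. It was called higher, with a log2 fold change of 3.04 (SE 0.227, limma adjusted p = 0.000117), and its heated mean was 0.137% of that of LOC412197. Whether reads of LOC412197 were counted on it was not tested. LOC726115, on the other side, had a log2 fold change of -0.37 (limma adjusted p = 0.122). Beside LOC410857, LOC410856 was lower in every heated library, with -0.99 (limma adjusted p = 0.00484), just short of the fold needed for a call, and LOC102653640 had -0.02 (limma adjusted p = 0.967). Beside LOC408875, LOC100576621 had -0.92 (limma adjusted p = 0.00503) and LOC411145 had 0.16 (limma adjusted p = 0.667). The lncRNA gene LOC113218886, which lies wholly within LOC408875 in that table, was not among the listed genes.

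The genes whose pattern over the 6 libraries was nearest to each of the 4 were found by the root mean square difference of log2 values, each gene centred on its own mean. For LOC412197 these were LOC410620, at 0.337 and with a log2 fold change of 8.25, followed by the cluster genes LOC410087 and LOC724274, where the median over all genes was 4.02. For LOC410857 they were LOC412196, which flanks LOC412197, the lncRNA gene LOC107965675 and LOC726289, at 0.160 to 0.192 (median 1.66). For LOC102653599 they were LOC551143, LOC409455 and the lncRNA gene LOC107966106, at 0.102 to 0.199 (median 1.90). Some of these genes were low at 35 °C, with 10 to 12 reads per library for LOC409455, 18 to 22 for LOC107966106 and 9 to 21 for LOC107965675. Their likeness may therefore depend on the 1 added before taking logs. For LOC408875 they were LOC409032, LOC409166 and aub, at 0.0333 to 0.0459 (median 0.427), and LOC409032 had a log2 fold change of 0.30. These likenesses are descriptions over 6 libraries. For the genes called higher, the distances and their medians follow mostly from the log2 fold changes already given.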

How the data were processed

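Individual midguts of honey bees were sequenced by the study (poly(A) selection, NEBNext Ultra, paired-end reads, HiSeq). The submitters' processing notes name Trimmomatic 0.36, STAR, Subread and DESeq2, and the methods name genome build Amel 4.5. The deposited signal values have the form of gene counts divided by a DESeq2 size factor for each library, replicates kept apart, in 3 tables of 10151 genes each. Whole reads could be recovered (100% of values, tolerance 0.01 read), and the size factors ran from 0.812 to 1.18. Factors recomputed from these reads by the median of ratios matched them, with a ratio of 1 in each library. No listed gene had fewer than 61 reads in all. The sources used here do not give the strand use of the counting, its treatment of overlapping genes or its annotation release.

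Because the unit was signal, limma 3.58.1 in R 4.3.3 (trend) was applied to log2(value + 1), which understates changes of low genes, with Benjamini and Hochberg adjustment over all 10151 genes. Intervals are 95%. Genes needed a mean of at least 1, which removed none. EdgeR 4.0.16 and DESeq2 1.42.0 on recovered reads, other scalings, filters, pseudocounts, thresholds, a replicate block and leaving out each library were alternatives. Scripts were tested on simulated data. Single ratios used a two-sided exact permutation test over the 6 libraries.

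The genes named were the 4 genes, the 6 cluster IDs, their flanking and overlapping genes, the 3 most alike in pattern for each, and up to 5 chaperone genes at each end of the fold changes. Members and lists were chosen with earlier results of these data known. Of the 10151 IDs, 9300 (91.6%) were found in the RefSeq gene table of assembly Amel_HAv3.1. As that is not the counted build, only names, classes and neighbours were taken from it. Libraries of 1 temperature came from separate bees, so p-values measure the spread between these midguts. The study states that 1 colony supplied all bees of an experiment. The control libraries were taken over from another series, so it is not known whether both temperatures shared a colony or a collection date. A difference in either was not tested. Mean chi-square per gene between replicates was at least 44.4, so each library was 1 replicate.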

Additional observations from a re-analysis of the deposited data

How the results depend on the processing

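Over 22 alternatives, LOC412197 had log2 fold changes of 7.17 to 8.11, LOC410857 2.82 to 3.41 and LOC102653599 2.82 to 3.88, and each passed the threshold in all 22. LOC408875 ran from -0.12 to 0.30 and passed it in 0 of 22 (adjusted p 0.101 to 1). With library size alone it was -0.12 and with library size without the 20 highest genes -0.0056, where the medians of all genes were -0.39 and -0.27, so that it lay 0.27 above the median in both. With quantile normalization it was 0.14 at a median of -0.15. DESeq2 gave 8.00, 3.18, 0.26 and 3.69 for LOC412197, LOC410857, LOC408875 and LOC102653599. Leaving out each library gave 7.91 to 8.11, 3.00 to 3.41, 0.19 to 0.30 and 3.60 to 3.88.

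Counts of all genes called moved more, from 1327 higher and 501 lower. A mean of at least 100 gave 872 higher, quantile normalization 804 lower, library size alone 829 higher and 1616 lower, library size without the 20 highest genes 1194 lower, the test against a log2 fold change of 1 382 higher and 13 lower, and no minimum fold change 2143 higher and 1844 lower. The share of higher among called genes was 72.6% and became 57.3% with quantile normalization, 33.9% with library size alone, 44.1% without the 20 highest genes, 96.7% against a log2 fold change of 1 and 53.7% with no minimum fold change. The share of reads of the 4 genes with the 20 highest genes out of the total was 0.268% at 35 °C and 4.10% at 45 °C.

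Samples with the same replicate number did not pair, with correlations of their deviations of 0.154, 0.0164 and 0.00538, and 2 of 6 libraries closest to their own number. A replicate block gave 1348 genes higher and 524 lower, the 4 genes 8.00, 3.20, 0.26 and 3.71, and changed no call among them. A mean of at least 5 and no filter removed no gene. Low depth limits none of the 4 genes, since each had at least 1038 reads in every library.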
